A study of Ovis aries with 16 samples.

Results

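The miR-30 family was measured as 4 rows, MIR30A, MIR30B, MIR30C and MIR30D, taken by name from the 105 miRNAs of a small RNA data set that lists 4920 non-coding transcripts in all. Liver (left lobe tip) and a muscle of the thigh, the vastus lateralis, were taken from 8 female Suffolk sheep aged about 21 months. The mothers of 4 animals had received 0.5 mg/kg bisphenol A (BPA), an oestrogen-like plastics monomer, in corn oil by daily subcutaneous injection from day 30 to day 90 of gestation, and the mothers of 4 controls had received corn oil alone. All offspring had fasted for 48 hours and were in the late follicular phase, set by 2 prostaglandin injections 11 days apart with harvest 24 hours after the last. The 16 libraries form 4 groups of 4 animals, with liver and muscle from the same sheep, and are named by the animal's number.

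MicroRNAs are short RNAs that guide the silencing complex to messenger RNAs, mainly through the seed near their 5′ end. The main products of the miR-30 genes share one seed and differ at a few other bases, so they can act on overlapping sets of messengers. In other systems the family is known for restraining connective tissue growth factor, for roles in fat cell and bile duct formation, and, for miR-30c, for lowering the microsomal triglyceride transfer protein that loads lipoproteins in liver. In the RefSeq gene table of the assembly ARS-UI_Ramb_v3.0, MIR30D and MIR30B are adjacent genes, MIR30A lies inside the lncRNA gene LOC114116445, and MIR30C lies inside NFYC, which encodes a subunit of a transcription factor. Both lncRNA genes that touch a member were almost without reads: LOC114116445 had 2 reads and LOC114116349, which overlaps one end of MIR30B, had 1 read over the 16 libraries. Because member sequences are so alike, reads that fit more than 1 gene may have been placed or dropped by the authors' counting, whose settings the sources used here do not give.

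The members were well covered. MIR30B, the scarcest, had 281 to 1112 reads per library, MIR30C 329 to 7618, MIR30A 1001 to 33562 and MIR30D 1192 to 27658. All miRNAs together had 94393 to 240815 reads in control livers, 578150 to 1383538 in BPA livers and 471691 to 1044886 in muscle. snRNA went the other way: its reads per 100 miRNA reads numbered 12.4 to 41.2 in control livers and 0.137 to 0.279 in BPA livers. The tissue labels were checked against miRNAs of each tissue. MIR194 and MIR148A, 2 of 5 listed hepatocyte miRNAs with a row, summed to 40787 to 66109 in livers and 1311 to 2028 in muscle, and MIR133 of striated muscle was at 244661 to 373488 in muscle and 115 to 717 in liver. Hepatocyte MIR122 and muscle MIR1 and MIR206 were also listed but had no row under these names.

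Values are the authors' normalized counts, in which a read count is divided by 1 size factor per library. The factors were set separately for liver and muscle, so values are compared directly only within a tissue. Levels of different members are compared per 100 nt of their RefSeq hairpin record (MIR30A 67 nt, MIR30B 88 nt, MIR30C 105 nt, MIR30D 70 nt). Without this division the order of the members by mean was the same in each group, but the gaps between members depend on it. In control muscle MIR30D and MIR30C averaged 10361 and 3632 undivided, against 14801 and 3459 per 100 nt. Shares and ratios of members use no length.

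Liver and muscle used the family in different proportions. In control livers MIR30A led, with 25448 ± 3823 normalized counts per 100 nt (SD, n = 4), followed by MIR30D with 8689 ± 1971. MIR30C and MIR30B came last there with 1698 ± 404 and 1487 ± 250, and their libraries overlapped. In control muscle MIR30D led with 14801 ± 946, followed by MIR30C with 3459 ± 317, MIR30A with 2145 ± 197 and MIR30B with 500.1 ± 31.04, and no neighbours in this order overlapped. The order in BPA muscle was the same, with MIR30D at 16168 ± 1963 and MIR30B at 469 ± 59.8 per 100 nt. In BPA livers the order was that of control livers, but MIR30B, at 445 ± 226, lay below MIR30C, at 1708 ± 267, without overlap.

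The share of each row in the summed miR-30 value of a library does not depend on the size factor. MIR30A made up 61.5% to 69.04% of that sum in control livers and 8.54% to 9.87% in control muscle. MIR30D made up 20.48% to 26.3% in control livers and 62.4% to 68.6% in control muscle. The row with most miR-30 reads in liver had a small part of them in muscle, and MIR30D led in muscle.

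**Figure D1:**
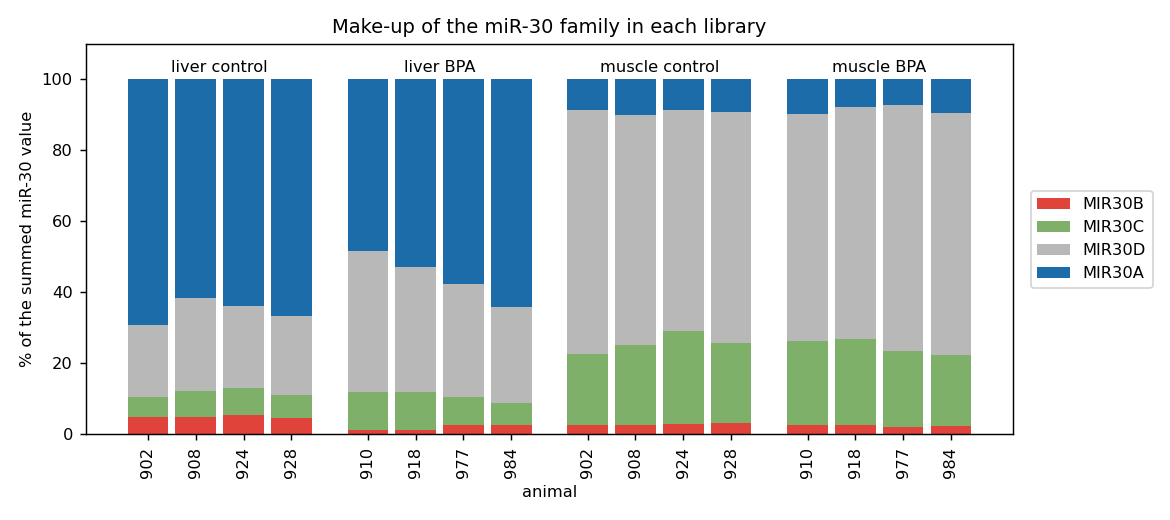
Make-up of the miR-30 family in each library: the y axis is the percent of the summed miR-30 normalized count, each bar is 1 library labelled by its animal, and colours are the 4 rows. MIR30A takes 48.2% to 69.04% of the bar in all 8 livers and 7.13% to 9.87% in all 8 muscle libraries.

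MIR30A was the liver member of the family. On a scale set over both tissues together, it was at 13977 ± 2151 in control liver and 1745 ± 211 in control muscle (SD, n = 4). The log2 difference of muscle minus liver was -2.69 ± 0.13 over all 16 libraries (SE, limma, Benjamini-Hochberg (BH) adjusted p = 3.78e-13), a 6.44-fold higher level in liver. It was -3.00 ± 0.18 within controls and -2.38 ± 0.18 within BPA animals. Of 75 miRNAs tested between the tissues, 76% passed (27 or 36% higher and 30 or 40% lower in muscle), so passing is common in this comparison, and MIR30A had the 8th lowest difference. The direction and the call of MIR30A were the same under all 21 alternatives tried.

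MIR30C and MIR30D were the muscle members. MIR30C was at 1462 ± 354 in control liver and 4407 ± 487 in control muscle on the common scale, and its log2 difference was 1.654 ± 0.14 (SE, limma adjusted p = 2.52e-09). MIR30D was at 4991 ± 1176 and 12580 ± 1260, with a log2 difference of 1.35 ± 0.12 (limma adjusted p = 3.97e-09). Both values depend on the scale. As shares of all miRNA reads, where the median of all miRNAs moved from -0.14 to -1.53, MIR30C was at 0.28 and MIR30D at -0.03 (limma adjusted p = 0.0457 and 0.806), which is 1.81 and 1.51 above that median.

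MIR30B did not pass between the tissues when both treatments were averaged (log2 difference -0.08 ± 0.20, limma adjusted p = 0.713). The signs within treatments were opposite. In controls it was lower in muscle (-0.99 ± 0.29, limma adjusted p = 0.00478, with 72% of miRNAs passing, 34.7% higher and 37.3% lower), and in BPA animals it was higher in muscle (0.82 ± 0.29, adjusted p = 0.0164, with 66.7% passing, 33.3% in each direction). The control call was lost with 1 size factor over the 4 classes (-0.14, limma adjusted p = 0.792), where BPA animals had the same sign (-0.34, limma adjusted p = 0.483). The value in BPA animals was 0.22 on the authors' scale (limma adjusted p = 0.466) and -0.52 as a share of miRNA reads (limma adjusted p = 0.0999). On the common scale the call was lost without animal 910 or 918 (0.55 and 0.58, limma adjusted p = 0.0902 and 0.128). Over all alternatives the adjusted p in BPA animals ran from 0.00141 to 0.680.

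Ratios of 2 members in the same library avoid the question of scale. MIR30A exceeded MIR30D 1.21 to 3.37 times in the 8 livers, whereas MIR30D exceeded MIR30A 6.56 to 9.71 times in the 8 muscle libraries. MIR30A was also 4.41 to 12.2 times MIR30C in livers and 0.317 to 0.475 times MIR30C in muscle. For both ratios no liver overlapped a muscle library. The ratio of MIR30C to MIR30D was 0.229 to 0.318 in livers (median 0.278) and 0.294 to 0.419 in muscle (median 0.349), and these ranges overlapped.

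**Figure D2:**
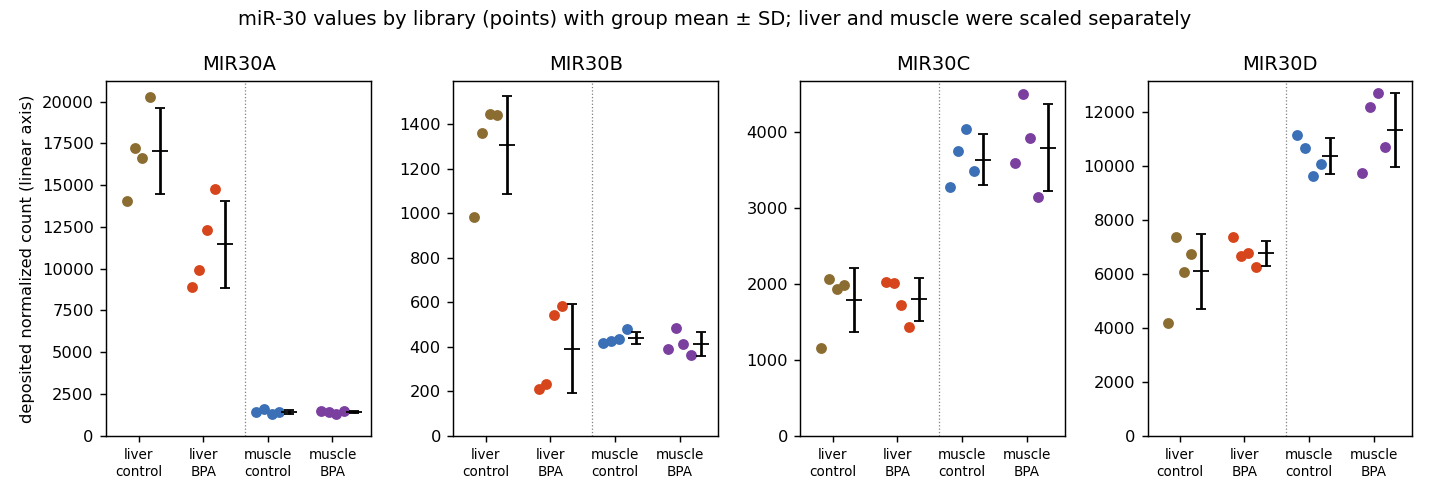
Normalized counts (y axis, linear, from 0) of MIR30A, MIR30B, MIR30C and MIR30D by library (points), with group mean ± SD (n = 4) beside the points; the dotted line separates tissues that were scaled separately. The 4 BPA livers lie below all 4 control livers for MIR30B (208 to 584 against 983 to 1445). The liver groups of the other rows overlap, as do the muscle groups of all 4 rows. Such separation was not counted over all miRNAs.

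In livers of BPA animals MIR30B fell and the other 3 members did not pass the test on the authors' scale, but with 1 size factor per library over all 4 RNA classes MIR30B did not pass and the other 3 passed as higher. Some other settings, given with each member, moved MIR30A or MIR30D past the threshold. MIR30B was at 983 in control 902, 1364 in 908, 1445 in 924 and 1442 in 928. In BPA livers it was at 208 in 910, 233 in 918, 541 in 977 and 584 in 984. No BPA liver reached the lowest control, which was 1.68 times the highest BPA liver. The liver groups of MIR200B, MIR26B, MIR29A and MIR29B-1 did not overlap either, while those of MIR26A did. The share of all miRNAs without overlap was not counted. The log2 difference of BPA minus control was -1.87 ± 0.35 (SE, n = 4 against 4, limma adjusted p = 0.00476), with a 95% confidence interval from -2.63 to -1.12. In these bulk samples fewer cells that make a miRNA and less of it per cell cannot be told apart.

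This was the lowest log2 difference among 78 miRNAs tested in liver. Of these, 11.5% passed, 5 higher (6.41%) and 4 lower (5.13%), against 1 of 4 miR-30 rows, which was lower. The median log2 difference of the 4 rows was -0.28, and that of all 78 miRNAs was 0.05. BPA livers 910 and 918 were lower than 977 and 984. Their library codes in the labels are 95 and 96, against 71 and 72 for the other pair and 65 for control 902, while the other 3 controls carry a higher range. Without 910 and 918, a choice made after seeing the data, MIR30B still passed at a smaller size (-1.20 ± 0.24, limma adjusted p = 0.0161). With the code range as a covariate the log2 difference was -0.80 ± 0.22 (adjusted p = 0.0306), a value that rests on control 902 and BPA 977 and 984, which share a range. The snRNA share given above also separates the liver groups, and its part in the result was not tested.

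With 1 size factor over all 4 RNA classes, the median liver log2 difference of all miRNAs moved from 0.05 to 1.51. MIR30B was then at -0.41 (limma adjusted p = 0.463), which is -1.92 relative to that median. MIR30A was at 0.88, MIR30C at 1.498 and MIR30D at 1.646 (limma adjusted p = 0.0378, 0.00577 and 0.00137), or -0.63, -0.02 and 0.13 relative to it. The adjusted p of MIR30B in liver ran from 2.60e-05 to 0.463 over all alternatives and from 3.46e-04 to 0.0202 on leaving out single libraries.

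MIR30A, the most abundant member in liver, was at 14055, 17234, 16622 and 20290 in control livers 902, 908, 924 and 928. In BPA livers it was at 8906 in 910, 9936 in 918, 12289 in 977 and 14752 in 984. Livers 910, 918 and 977 lay below every control, and 984 lay above control 902. The log2 difference was -0.59 ± 0.19 (SE, 95% interval -1.01 to -0.17) and did not pass (limma adjusted p = 0.0593, unadjusted 0.00989). It passed without BPA 984 (-0.72, limma adjusted p = 0.0115) and without both 977 and 984 (-0.85, limma adjusted p = 0.00955), with reads thinned to the shallowest library (-0.71, adjusted p = 0.0459), and when adjusted over all 4 tables at once (adjusted p = 0.0270). With the code range as a covariate it was at -0.06, a value that rests on control 902 and BPA 977 and 984. The adjusted p ran from 0.00955 to 0.918 over all alternatives.

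MIR30C and MIR30D had overlapping liver groups. MIR30C was at 1151 to 2063 in control livers and 1427 to 2022 in BPA livers (log2 difference 0.03 ± 0.24, 95% interval -0.50 to 0.56, limma adjusted p = 0.922). MIR30D, the gene next to MIR30B, was at 4170 to 7364 and 6237 to 7340 (0.18 ± 0.20, interval -0.26 to 0.62, adjusted p = 0.671). A change of either row by the size seen for MIR30B lies outside these intervals, which hold for the authors' scale without code ranges. They do not cover the choice of scale: with 1 size factor over all 4 RNA classes MIR30C was at 1.498 and MIR30D at 1.646. MIR30D passed with the code range as a covariate (0.64, limma adjusted p = 0.0482).

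**Figure D3:**
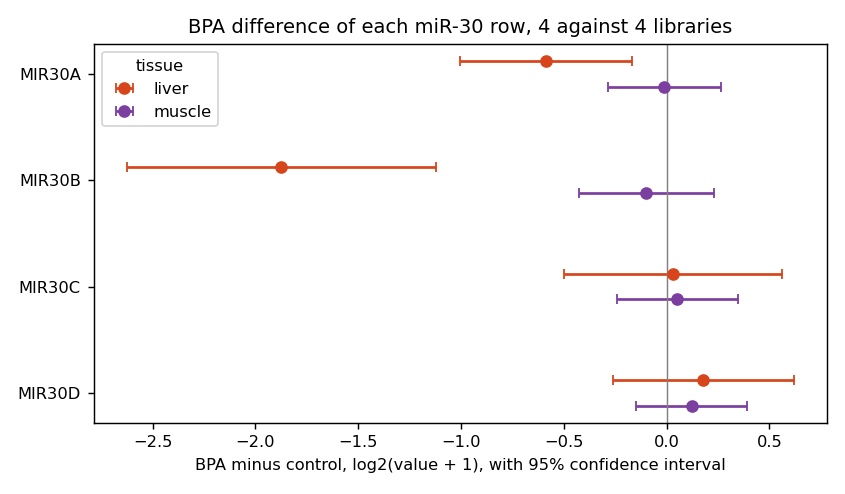
Difference of BPA minus control (x axis, log2(value + 1)) for each miR-30 row in liver and muscle, with 95% confidence intervals from limma, 4 against 4 libraries. The liver interval of MIR30B, -2.63 to -1.12, overlaps none of the other 7; that of MIR30A in liver, -1.01 to -0.17, is the nearest.

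Within a library MIR30B was scarcer relative to the other 3 members in every BPA liver than in any control liver. MIR30D was 4.20 to 5.40 times MIR30B in control livers, and 35.2, 28.6, 12.5 and 10.7 times in BPA livers 910, 918, 977 and 984. In muscle this ratio ran from 20.9 to 30.9, so liver 918 lay inside the muscle range and 910 above it. The BPA minus control difference in mean log2 ratio was -2.06 for MIR30B to MIR30D, -1.91 for MIR30B to MIR30C and 1.29 for MIR30A to MIR30B. For these 3 ratios the groups did not overlap and the exact permutation test gave p = 0.0286, the smallest that 4 against 4 libraries allow. After BH adjustment over 12 ratio tests this was 0.114, so none passed. With only these 3 ratios at the smallest p, none could have passed, so the adjusted value does not decide the question.

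The liver groups overlapped for the other ratios. MIR30A was 2.34 to 3.37 times MIR30D in control livers and 1.21, 1.49, 1.82 and 2.37 times in BPA livers 910, 918, 977 and 984 (log2 difference -0.77, exact permutation p = 0.0571, adjusted 0.171). The ratio of MIR30C to MIR30D, at 0.276 to 0.318 in controls and 0.229 to 0.301 in BPA livers, overlapped (exact permutation p = 0.2, adjusted 0.3). As shares of the summed family, MIR30B went from 4.74% to 5.54% in control livers to 1.13% to 2.54% in BPA livers, and MIR30D from 20.48% to 26.3% to 27.1% to 39.7%. The summed miR-30 value was 26224 ± 4298 in control and 20405 ± 2141 in BPA livers, given without a test.

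**Figure D4:**
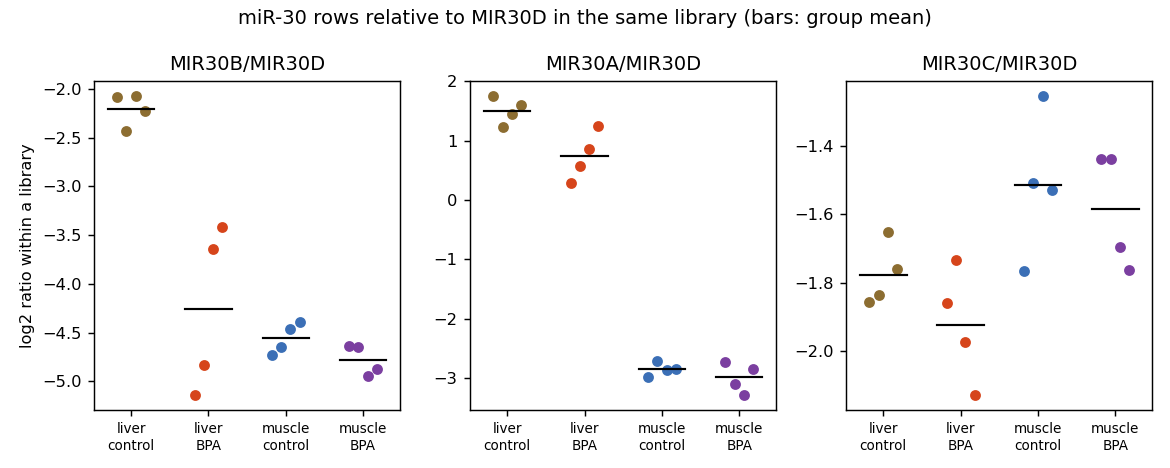
log2 ratio (y axis) of MIR30B, MIR30A and MIR30C to MIR30D within each library (points; bars are group means, n = 4). MIR30B to MIR30D averages -2.20 in control livers and -4.26 in BPA livers, against -4.56 and -4.78 in control and BPA muscle.

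In muscle no member passed the test between BPA and control animals. MIR30B was at 419, 425, 437 and 480 in control 902, 908, 924 and 928, and at 389, 486, 412 and 364 in BPA 910, 918, 977 and 984, with overlapping groups. Its log2 difference was -0.10 ± 0.15 (95% interval -0.43 to 0.23, limma adjusted p = 0.846). The intervals were -0.29 to 0.26 for MIR30A, -0.24 to 0.35 for MIR30C and -0.15 to 0.39 for MIR30D (limma adjusted p = 0.967, 0.867 and 0.841). Of 70 miRNAs tested in muscle, 0% passed by limma, with 3 at an unadjusted p below 0.05, and edgeR and DESeq2 also called 0. None of the 6 ratios between members passed there, and the smallest exact permutation p was 0.171 (adjusted 0.294). The summed miR-30 value was 15870 ± 547 in control and 16941 ± 1782 in BPA muscle.

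The fall of MIR30B in liver was tested against muscle of the same animals. The BPA difference in muscle minus that in liver was 1.775 ± 0.40 for MIR30B (SE, limma interaction, adjusted p = 0.0215), where 2.63% of 76 miRNAs passed, 1.32% in each direction. The interaction was 0.57 ± 0.23 for MIR30A (adjusted p = 0.233), 0.02 ± 0.27 for MIR30C and -0.06 ± 0.23 for MIR30D (limma adjusted p = 0.979 and 0.940). With the animal as a block MIR30B kept its call (adjusted p = 0.0467), and 1 miRNA passed in place of 2. The call was lost without animal 908, 924, 928, 910 or 918, with values of 1.73, 1.72, 1.76, 1.55 and 1.496 (limma adjusted p from 0.0584 to 0.158; 4.60e-04 to 0.756 over all alternatives). It was also lost with reads thinned to the shallowest library (1.86, limma adjusted p = 0.126). With 1 size factor over the 4 classes it was at -0.20 (limma adjusted p = 0.756), or 1.79 relative to a median of -1.98 over all miRNAs.

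Across the 8 livers MIR30A and MIR30B varied together and with the miR-29 family, whose members repress collagen genes. MIR30A and MIR30B had a Pearson r of 0.95 on log2(value + 1), while MIR30B and its neighbour MIR30D had -0.27. MIR29B-1 and MIR29B-2, whose values are identical in every library, were most like both MIR30A (r = 0.98) and MIR30B (0.97), and MIR29A came next for MIR30B (0.96). MIR30C was most like MIR30D (r = 0.87), MIRLET7A (0.84) and MIR16B (0.80), and MIR30D after MIR30C was most like MIR154B (0.87) and MIR370 (0.78). These correlations over 8 libraries among 73 other miRNAs are descriptions: the libraries share their depth, scale and treatment groups.

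MIR29B-1 was at 42.0 to 60.2 in control livers and 26.3, 26.7, 40.9 and 41.4 in BPA livers 910, 918, 977 and 984, on 12 to 99 reads. Its groups did not overlap, but its log2 difference of -0.61 ± 0.30 did not pass, nor did that of MIR29A at -0.52 ± 0.18 (limma adjusted p = 0.237 and 0.0790). As for MIR30B, livers 910 and 918 were the lowest. MIR26B, of a family with a different seed, fell by 1.03 ± 0.20 on the log2 scale (adjusted p = 0.00550), but there 977 and 984 were the lowest, at 8847 and 7893, against 10865 and 11330 in 910 and 918. MIR26A was at 0.05 ± 0.14 (limma adjusted p = 0.907).

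**Figure D5:**
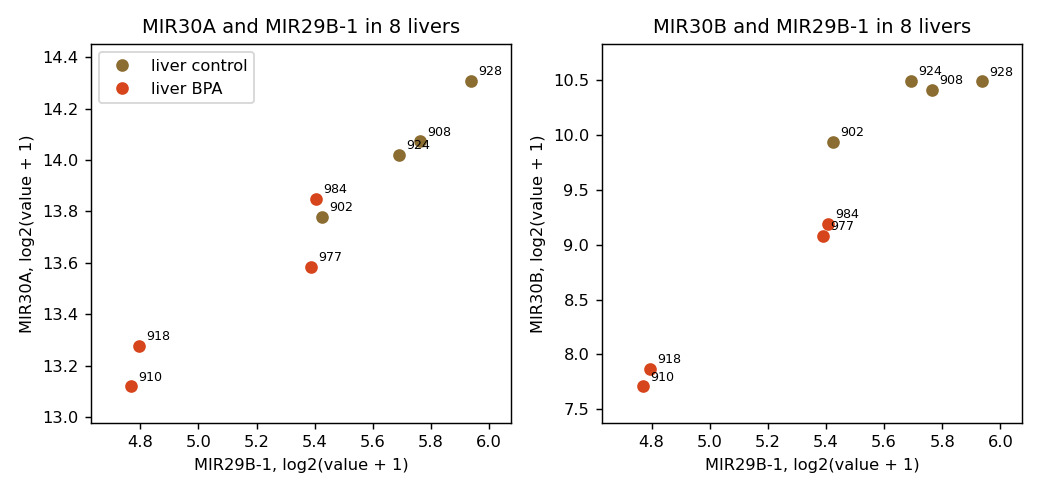
MIR30A (left) and MIR30B (right) against MIR29B-1 in the 8 livers, both axes on log2(value + 1), each point 1 library labelled by its animal. BPA livers 910 and 918 are lowest on all 3 rows, and 977 and 984 lie between them and the controls for MIR30B and MIR29B-1.

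The pairings in muscle were others. MIR30A and MIR30B had a Pearson r of -0.21 there, MIR30B and MIR30C 0.61, and MIR30C and MIR30D 0.35 over 8 libraries. MIR30B was most like MIR10B (0.86), MIR374B (0.78) and MIR133 (0.75), MIR30A most like MIR485 (0.78), MIR106B (0.63) and MIR21 (0.59), MIR30C most like MIR362 (0.70) and MIR133 (0.66), and MIR30D most like MIR374A (0.65), MIR22 (0.64) and MIR433 (0.60).

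The family was set beside miRNAs of the processes it is known for. Of 11 miRNAs of lipid and glucose metabolism, 0 rose and 1 fell in BPA livers (MIR26B), with a median log2 difference of 0.05, the same as for all miRNAs, of which 6.41% rose and 5.13% fell. In muscle 0 passed, with a median of -0.18 against 0.01 for all miRNAs. Of 10 fibrosis-related miRNAs, 1 rose in liver (MIR200B, of epithelial cells, 2.07 ± 0.30, limma adjusted p = 7.08e-04), 0 fell, and the median was -0.07. Both counts are near the 11.5% of all miRNAs that passed in liver. In muscle 0 of these 10 passed, with a median of -0.23. The lists share the miR-29 rows. Of these, MIR29B-1 and MIR29B-2 hold identical values, so each list and its median count that measurement more than once. Among miRNAs of other cell types, the summed level of 3 of 5 epithelial miRNAs with a row was 482 to 1367 in control livers and 1504 to 1965 in BPA livers, without overlap. MIR200B alone carried this, at 294.9 ± 118.8 and 1177 ± 174 (SD, n = 4), while MIR200A was at 526 ± 226 and 456 ± 116 and MIR200C at 55.9 ± 40.7 and 77.4 ± 66.0, and neither passed (limma adjusted p = 0.903 and 0.680). The 2 of 4 fibroblast and smooth muscle miRNAs with a row summed to 26709 to 40182 and 27447 to 52968, leukocyte MIR150 was at 199 to 549 and 231 to 493, and endothelial MIR221 at 345 to 730 and 435 to 703. The part of the MIR200B difference in that of MIR30B was not tested.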

How the data were processed

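Small RNA was sequenced from 16 libraries. The authors' 4 deposited tables (miRNA, snoRNA, snRNA, lncRNA) hold a signal: read counts scaled by 1 size factor per library. Cutadapt 3.2, STAR 2.6.0c and featureCounts 1.6.1 are listed with no role, per the submitters' processing notes. The sources used here give no genome build, annotation or strand setting. Every value was a whole multiple of 1 step per library within 0.001 (100% of 1451 miRNA values above 0), which gave reads back. Within each tissue all libraries had the same median ratio to the mean profile, so the scale was set per tissue, with a miRNA offset of -0.59 log2 units for muscle minus liver. Tissue differences were therefore fitted on reads divided by median-of-ratios factors over all 16 libraries.

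Tests used limma 3.58.1 in R 4.3.3 (trended prior variance) on log2(value + 1), a scale that understates changes of scarce miRNAs. miRNAs of mean value at least 5 were tested, two-sided, with BH adjustment over the table and a threshold of 0.05. Liver and muscle were fitted alone, and tissue and interaction over 16 libraries in 4 groups. Member ratios had an exact permutation test, two-sided. Alternatives included edgeR 4.0.16 and DESeq2 1.42.0 on recovered reads. On simulated data limma called 7 of 7 changed miRNAs at a log2 change of 2 and 4 of 7 at 1 among 80 in liver. This was 1 draw with trended dispersion and no library code ranges, so it does not give the power in these livers. Replicates are separate animals, and libraries of a group differed beyond counting noise (chi-square per degree of freedom at least 18.2).

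Liver and muscle of 1 animal are paired by its number in the labels. Their deviations from the group means correlated by -0.68 to 0.44 over 76 miRNAs, and for 0 of 8 animals was the own muscle the closest. Named miRNAs are the 4 members, for each member the 3 most correlated miRNAs of mean value at least 10 in each tissue, called members of the lists, and cell type markers. MIR29A, MIR29B-1 and MIR26A are named with values as the families set beside miR-30. The members and lists were chosen with earlier results of these data known. RefSeq names matched 105 of 105 miRNA rows. Its coordinates served only to find genes that neighbour or overlap a member, on either strand. They were not set against the reads, because the builds may differ. No miRNA sequences were used here.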

Additional observations from a re-analysis of the deposited data

Results flagged for a closer look

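Of 16 combinations of a member and a group, 1 held a library that stood apart from the other 3 by Dixon's test, where chance gives about 1 in 20: MIR30C in control liver 902, at 1151 against 1934 to 2063. The same library was the lowest control liver for all 4 members and the shallowest of all, with 94393 miRNA reads. Without it the BPA difference of MIR30C in liver was -0.17. The BPA minus control difference of MIR30B differed between the tissues in a test of the difference itself (1.775 on the log2 scale, limma interaction adjusted p = 0.0215). This call held in 3 of 8 fits that left out 1 animal (limma adjusted p up to 0.158). With 1 size factor over the 4 tables the value was -0.20.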

How the results depend on the processing

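Of 608 alternative values for the 36 log2 differences and ratios, 572 kept their side of the threshold, and 539 kept their sign too. They include ratios with 1 animal left out, whose exact permutation test could not reach the threshold with so few libraries. Those ratios were bound to keep their side. In 33 values the sign changed while neither fit passed, at -0.21 to 0.21, of which 7 were MIR30C in liver. With 1 size factor over the 4 tables the BPA differences in liver were 0.88 (MIR30A), -0.41 (MIR30B), 1.498 (MIR30C) and 1.646 (MIR30D), and the interactions -1.40, -0.20, -1.95 and -2.03; the median of all miRNAs moved as well, to 1.51 and -1.98. With that scaling muscle minus liver was -0.14 for MIR30B in controls, and -0.34, 0.52 and 0.18 for MIR30B, MIR30C and MIR30D in BPA animals. MIR30A in liver passed with 1 adjustment over the 4 tables (-0.59), with thinned reads (-0.71) and without BPA livers 977 and 984 (-0.85), and leaving out single libraries gave -0.72 to -0.47. MIR30D in liver passed with the code range as a covariate (0.64). The MIR30B interaction was 1.86 with thinned reads, and 1.496 to 2.08 on leaving out single animals.

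Muscle minus liver of MIR30B was -1.46 as a share of miRNA reads, -1.04 with thinned reads and -0.67 on the deposited scale. In BPA animals it was -0.52, -0.19 and 0.22 in that order, and 0.55 to 1.16 on leaving out single animals. As shares of miRNA reads MIR30D was at -0.025 over all animals, -0.047 in controls and -0.0041 in BPA animals, and MIR30C at 0.21 in controls and 0.34 in BPA animals. The cause of these shifts was not tested.

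With the animal as a replicate block the MIR30B interaction was 1.775 ± 0.43 (limma adjusted p = 0.0467), and no other call of a member changed. The liver count of called miRNAs was 9, against 15 when adjusted over all tables at once, 68 with 1 size factor, 3 without livers 910 and 918, 19 without 977 and 984, and 4 to 15 on leaving out single libraries. The interaction count was 2, against 1 with edgeR or the block, 5 when adjusted over all tables at once, 70 with 1 size factor, 4 with quantile normalization, 0 with thinned reads, and 0 to 9 on leaving out single animals. Depth limits the control livers most, where MIR30B rests on 281 to 970 reads and MIR29B-1 on 12 to 36. The code range could be fitted in liver only through control 902 and BPA 977 and 984.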
